A study of Mus musculus with 72 samples.

Results

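The genes described here are the nuclear-encoded subunits of the mitochondrial respiratory chain and ATP synthase in mouse liver. They were chosen by symbol in the authors' deposited comparison table: Nduf subunits of complex I without the assembly factors, Sdha to Sdhd, Uqcr genes and Cyc1, Cox genes numbered for the nuclear subunits, and Atp5 genes, without pseudogene symbols. The rule took 81 of the 51912 genes of the count table, and all 81 passed the filter on low counts that left 19362 genes for testing. By complex, there were 37 genes of complex I, of which 7 are core subunits and 30 accessory, 4 of complex II, 9 of complex III, 14 of complex IV and 17 of complex V.

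Complexes I and II pass electrons from NADH and succinate to ubiquinone, complex III passes them to cytochrome c, and complex IV reduces oxygen. Complexes I, III and IV pump protons, and complex V, the ATP synthase, lets them flow back to make ATP. Most subunits are encoded in the nucleus and imported, whereas a small set of core subunits of complexes I, III, IV and V is encoded by mitochondrial DNA, and complex II is wholly nuclear. Liver uses the chain to oxidise fatty acids and amino acids, and the fasted liver relies on fatty acid oxidation for the ATP that glucose synthesis consumes.

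Polyadenylated, strand-marked RNA-seq libraries were made from livers of DBA/2J and C57BL/6J mice of both sexes, which ate a Low Protein, a Medium Protein or a Control diet. The diets began at 10 weeks of age and lasted 13 weeks, and the animals were killed at 23 weeks after a fast of 16 h, having been housed at about 22 °C. All animals were of the inbred strain named, with no allele or agent given in the labels, and the 12 combinations of strain, sex and diet had 6 libraries apiece. The comparisons address how reduced dietary protein acts on the liver of each sex and strain.

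Library totals were 26.9 to 38.4 M estimated counts with a median of 32.4 M, and the 81 genes took 0.346% to 0.681% of them. Levels are given as CPM, counts scaled to a common library size after TMM scaling, whose factors assume that most genes do not differ. In 4 libraries, C57BL/6J male Control replicates 6 and 1, DBA/2J male Control replicate 4 and C57BL/6J male Medium Protein replicate 6, genes that collect ribosomal RNA reads took over 5% of counts. The 8 hepatocyte markers, Alb among them, summed to 38100 CPM or more in each library, and 6 of 8 skeletal muscle markers were at 0 in most libraries. Replicates of a group differed by more than counting noise, so no library was counted as a repeat of another, and the labels give each library as its own sample. Within groups 6 pairs of libraries share a number in their titles, whose meaning the labels do not give, so it was not tested whether all 6 libraries of a group are independent. The labels also carry codes that look like plate positions and follow the order of the groups, so an effect of such an order cannot be told apart from strain, sex or diet. In whole liver, fewer cells of a type and less RNA per cell cannot be told apart.

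Promoters of the 5 genes whose diet responses are described most fully below are shown first, from RefSeq on GRCm38.p6, from 250 bases before to 50 bases after the transcript start. A promoter entry was found for 67 of the 81 genes, 72 promoters in all. Capitals mark the core motif of NRF1, in which a single position may hold any base, CCGGAAG of the ETS family, which includes the GABPA subunit of NRF2, and ATGGCGGC of YY1, on either strand. All 3 are known regulators of nuclear respiratory genes. Sdha (ENSMUSG00000021577), at chr13:74350191-74350490 on the minus strand, and Sdhb (ENSMUSG00000009863), at chr4:140961021-140961320 on the plus strand, encode the catalytic flavoprotein and iron-sulfur subunits of complex II. Cox6a1, at chr5:115348909-115349208 on the minus strand, and Cox8a, at chr19:7217567-7217866 on the minus strand, encode the liver isoforms of complex IV subunits. Atp5g1, at chr11:96075582-96075881 on the minus strand, encodes the proton-carrying subunit c of ATP synthase.
Sdha: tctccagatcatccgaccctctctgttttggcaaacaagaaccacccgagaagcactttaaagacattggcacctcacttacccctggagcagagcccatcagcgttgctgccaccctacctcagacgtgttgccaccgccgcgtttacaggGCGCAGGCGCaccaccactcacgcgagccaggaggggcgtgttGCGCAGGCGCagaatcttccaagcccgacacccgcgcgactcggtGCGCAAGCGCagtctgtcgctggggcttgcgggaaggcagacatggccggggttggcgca
Sdhb: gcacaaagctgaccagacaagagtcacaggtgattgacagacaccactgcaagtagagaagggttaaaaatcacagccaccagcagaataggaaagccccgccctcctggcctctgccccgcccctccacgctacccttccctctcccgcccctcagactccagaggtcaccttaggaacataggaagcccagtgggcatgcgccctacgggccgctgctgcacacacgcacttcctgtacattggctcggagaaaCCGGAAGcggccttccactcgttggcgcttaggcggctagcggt
Cox6a1: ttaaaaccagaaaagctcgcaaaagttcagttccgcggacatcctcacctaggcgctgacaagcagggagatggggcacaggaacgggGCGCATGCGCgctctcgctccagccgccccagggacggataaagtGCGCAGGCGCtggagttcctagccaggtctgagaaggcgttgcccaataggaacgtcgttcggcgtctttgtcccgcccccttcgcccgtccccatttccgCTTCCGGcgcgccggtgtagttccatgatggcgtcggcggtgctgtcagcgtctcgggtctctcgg
Cox8a: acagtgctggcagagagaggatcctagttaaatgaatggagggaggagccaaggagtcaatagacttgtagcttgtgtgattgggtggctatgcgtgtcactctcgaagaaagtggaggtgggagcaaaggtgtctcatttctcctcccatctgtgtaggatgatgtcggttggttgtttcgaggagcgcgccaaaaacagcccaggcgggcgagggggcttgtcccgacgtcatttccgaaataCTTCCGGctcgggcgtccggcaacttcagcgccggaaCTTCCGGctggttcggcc
Atp5g1: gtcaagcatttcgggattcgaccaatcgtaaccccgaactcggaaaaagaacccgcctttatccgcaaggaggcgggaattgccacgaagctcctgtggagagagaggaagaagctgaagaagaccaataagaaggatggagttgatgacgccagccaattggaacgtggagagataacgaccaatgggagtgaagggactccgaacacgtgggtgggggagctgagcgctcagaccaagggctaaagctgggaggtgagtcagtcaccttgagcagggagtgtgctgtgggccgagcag
The Sdha window held 3 matches to the NRF1 motif, as its 3 capital runs show, Sdhb held 1 ETS match, Cox6a1 held 2 NRF1 matches and 1 ETS match, and Cox8a held 2 ETS matches, while none was found in the Atp5g1 window.

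Across the 72 promoters, the NRF1 core motif was present in 25%, against 4.6% of all 32851 promoters of the same length and 8.51% of the 15312 promoters of tested genes. CCGGAAG was present in 23.6%, against 8.86% of all promoters and 15.2% of those of tested genes. ATGGCGGC was present in 9.7%, against 2.24% and 4.07%. Stricter forms, each of which contains its short form, were compared with both backgrounds. The exact NRF1 palindrome, seen as the first capital run of Cox6a1, was in 6.9%, against 0.97% of all promoters and 1.8% of those of tested genes, and the long YY1 motif in 5.6%, against 0.63% and 1.25%. CCGGAAGT was in 6.9%, against 3.89% of all promoters and 6.93% of those of tested genes, so its share did not stand above that of tested genes. The ESRRA letters TCAAGGTCA were in 2.8%, against 0.42% and 0.3%, and the NFY letters CCAAT in 41.7%, against 37.4% and 37.3%. Several shares rest on few promoters: 5 each for the NRF1 palindrome and CCGGAAGT, 4 for the long YY1 motif and 2 for TCAAGGTCA. No match was found for any of the 3 short motifs in 35 of the 72 promoters. A match describes letters only.

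The 81 genes lay on 19 chromosomes, 3 of them on X, and many were short. Summed coding-transcript exon length in GENCODE M21, known for 80, ran from 371 to 4912 bases with a median of 992. Per kilobase of exon, the highest median levels over the 72 libraries were 337 CPM for Atp5b, the catalytic beta subunit of ATP synthase, 236 CPM for Cox4i1, the general isoform of a complex IV subunit, 235 CPM for Atp5a1, the ATP synthase alpha subunit, and 149 CPM for Uqcrh, the hinge protein of complex III. Within complex II, the level per kilobase was 116 CPM for Sdhd, 97.9 for Sdha, 74.1 for Sdhb and 21.3 for Sdhc, where Sdhc and Sdhd are the membrane anchors. Of the 3 genes for the same mature subunit c, Atp5g3 was at 127 CPM per kilobase, Atp5g2 at 64.9 and Atp5g1 at 13.9. The exon length of Atp5g1 was 4912 bases, the longest of all, against 731 for Atp5g2 and 724 for Atp5g3, so this order rests on the lengths used. Undivided, the median levels were 91.9 CPM for Atp5g3, 68.4 for Atp5g1 and 47.5 for Atp5g2. Atp5g1 was thus the lowest of the 3 only per kilobase. On Low Protein it was called higher in both groups of females, but in C57BL/6J not without Low Protein replicate 3.

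Isoforms known from other tissues were scarce. Cox7a1, the heart and muscle isoform of its complex IV subunit, lay between 0.05 and 1.27 CPM, and Cox6b2, the testis isoform of another, between 0.03 and 1.23 CPM. Cox4i2, Cox6a2 and Cox8b, isoforms used in lung or in muscle, were outside the symbol rule's table and had highest levels of 0.292, 0.135 and 0.11 CPM, and Ndufa4l2, a relative of Ndufa4, had a median of 0.258 CPM. The liver forms Cox7a2, Cox6a1 and Cox8a were at 80, 76.4 and 73.1 CPM per kilobase. Ndufb4 and Ndufb4c are close copies, so the division of reads between them is uncertain. Ndufb4c is the gene of the set without a coding-transcript exon length in GENCODE M21, and its place in complex I rests on its symbol.

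Summed over the 81 genes, the level was 6046 ± 325 CPM on Low Protein, 5757 ± 222 on Medium Protein and 5805 ± 222 on Control in DBA/2J males (SD, n = 6 each). In DBA/2J females the sums were 5593 ± 318, 5080 ± 124 and 4926 ± 219 CPM on the same diets. They were 5182 ± 254, 5802 ± 266 and 6010 ± 250 CPM in C57BL/6J males, and in C57BL/6J females 5799 ± 883, 5746 ± 287 and 5351 ± 377 CPM. The sum was thus lowest on Low Protein in C57BL/6J males alone, and the Low Protein group of C57BL/6J females had the widest spread. With libraries scaled to their totals, the 3 sums in C57BL/6J males were 5220 CPM on Low Protein, 5126 on Medium Protein and 5113 on Control, so that order did not hold under this scaling. These totals include genes that collect ribosomal RNA reads, at 34.9% of counts in Control replicate 6 and 12.6% in replicate 1. In those livers the 81 genes took 0.346% and 0.474% of counts, against 0.540% to 0.571% in the other Control livers. Low Protein livers had 0.472% to 0.565%. The part of the ribosomal reads in the changed order was not tested. DBA/2J females on Control gave the lowest group mean of all 12 for 38 of the 81 genes, and C57BL/6J males on Low Protein for 15. The highest group mean was in DBA/2J males on Low Protein for 21 genes, C57BL/6J females on Low Protein for 20 and C57BL/6J males on Control for 17. The ratio of highest to lowest group mean was 1.15 for Uqcrc2 and 1.98 for Uqcrq, which bounded all genes but Cox7a1 and Cox6b2.

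**Figure D1:**
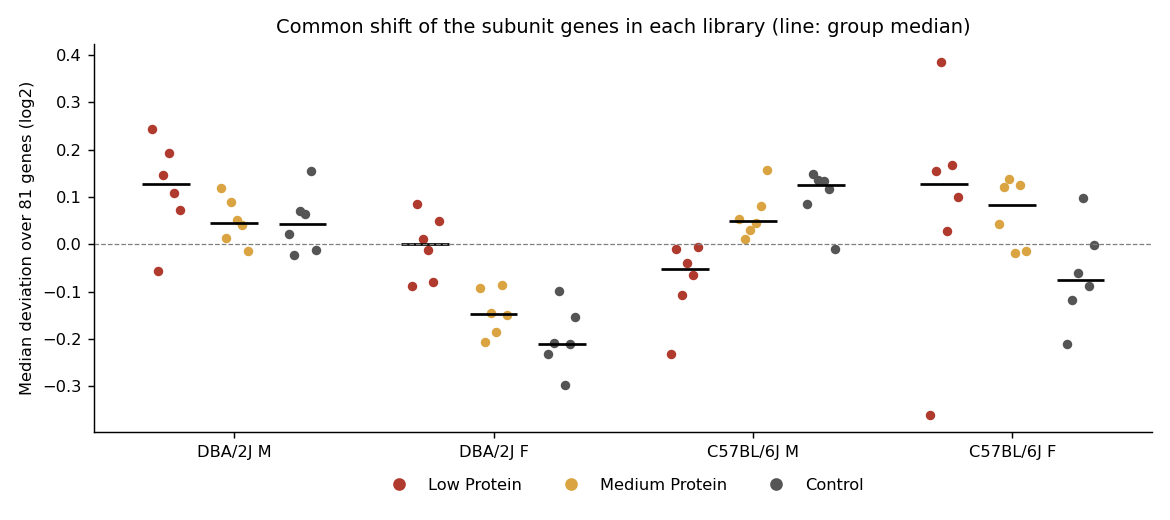
Each point is a library and shows the median, over the 81 genes, of the difference between log2(CPM + 0.5) in that library and the mean over all 72 libraries; lines are group medians and the dashed line is 0. C57BL/6J males on Low Protein lie between -0.23 and -0.01 with Controls between -0.01 and 0.15, and C57BL/6J females on Low Protein run from -0.36 to 0.39.

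Relative to other genes, Low Protein livers of C57BL/6J males had less of a set of respiratory chain transcripts, spread over all 5 complexes and most complete in complex II. A gene was called where the p of edgeR's quasi-likelihood test, adjusted by Benjamini-Hochberg across the 19362 genes, was below 0.05. By that rule 19 of the 81 genes fell and 0 rose (47 at an unadjusted p below 0.05), against 9.78% of all genes called and 5.7% called lower. The fitted log2 fold change of Low Protein over Control was below 0 for 77 of the 81, with a median of -0.18 against 0.01 over all genes tested. Counts by complex were 4 of 37 in complex I, 3 of 4 in complex II, 3 of 9 in complex III, 4 of 14 in complex IV and 5 of 17 in complex V.

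Complex II changed most. Sdha had a lowest, median and highest level of 235, 237 and 255 CPM on Low Protein, against 306, 331 and 376 CPM on Control. All 6 Low Protein livers lay below every Control liver, and the log2 fold change was -0.47 ± 0.07 (SE; edgeR adjusted p = 5.45e-06). Sdhb had 53.7, 62.8 and 75.1 CPM on Low Protein, against 86.0, 95.1 and 99.96 CPM on Control, again without overlap, with a log2 fold change of -0.57 ± 0.11 (edgeR adjusted p = 0.000282). The anchor Sdhd also fell and its ranges overlapped, with 99.2, 112 and 122 CPM on Low Protein, against 114, 130 and 145 CPM on Control. Sdhc, the other anchor, was not called, with 64.7, 74.9 and 78.8 CPM on Low Protein, against 71.1, 81.7 and 86.7 CPM on Control.

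In complex IV, Cox6a1, a subunit at the dimer contact, had 29.6, 40.4 and 47.7 CPM on Low Protein, against 50.9, 54.0 and 58.9 CPM on Control. The groups did not overlap, and the log2 fold change was -0.45 ± 0.11 (edgeR adjusted p = 0.00271). Cox6c had 69.9, 80.8 and 82.9 CPM on Low Protein, against 87.4, 96.9 and 99.9 CPM on Control, also without overlap, and Cox7c and Cox8a completed the 4 that fell. In complex III, Uqcrc1, a core protein, had 91.2, 111 and 129 CPM on Low Protein, against 131, 142 and 154 CPM on Control, with a log2 fold change of -0.35 ± 0.09 (edgeR adjusted p = 0.00349). Every Low Protein liver was again below every Control liver, and Uqcrfs1, the Rieske iron-sulfur protein, and Uqcr11, a small accessory subunit, also fell. Cyc1, the cytochrome c1 of complex III, had a log2 fold change of -0.17 (edgeR adjusted p = 0.217).

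In ATP synthase, Atp5c1, the gamma subunit of the central stalk, had 99.2, 107 and 110 CPM on Low Protein, against 120, 130 and 140 CPM on Control. Atp5a1 had 592, 624 and 666 CPM on Low Protein, against 678, 747 and 787 CPM on Control. Neither gene's groups overlapped, and the log2 fold changes were -0.30 ± 0.07 for Atp5c1 (edgeR adjusted p = 0.00385) and -0.24 ± 0.06 for Atp5a1 (edgeR adjusted p = 0.0069). Atp5pb of the peripheral stalk, Atp5j2 of the membrane part and Atp5g3 also fell. The catalytic Atp5b had 558, 601 and 618 CPM on Low Protein, against 610, 663 and 712 CPM on Control, and was not called (log2 fold change -0.16; edgeR adjusted p = 0.094).

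The 4 complex I genes that fell, Ndufa1, Ndufa6, Ndufb8 and Ndufa13, are accessory subunits. Ndufa1 had 13.8, 14.4 and 15.5 CPM on Low Protein, against 16.1, 18.1 and 19.3 CPM on Control, without overlap. Among core subunits, which carry the flavin and the iron-sulfur clusters, Ndufv1 had a log2 fold change of -0.19 (edgeR adjusted p = 0.155), and Ndufs1 had -0.09 and was not called. The median over the 7 core subunits was -0.17 and that over the 30 accessory subunits -0.16.

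The count rested partly on single libraries and on scaling. It was 10 without C57BL/6J male Low Protein replicate 1, 12 without C57BL/6J male Control replicate 5, 8 with no filter on low counts and 12 with 1 animal per title number. With libraries scaled to their totals, the median of all genes moved to 0.26 and that of the 81 genes to 0.06, which is -0.19 relative to all genes, and 4 genes were then called higher and 2, Sdha and Sdhb, lower. The totals of Control replicates 6 and 1 include 34.9% and 12.6% in genes that collect ribosomal RNA reads, whose part in this was not tested. Red blood cell markers moved with this contrast: 5 of 7 tested were higher on Low Protein, with a summed level of 169, 379 and 480 CPM on Low Protein, against 127, 164 and 260 CPM on Control, and their part in the result was not tested.

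**Figure D2:**
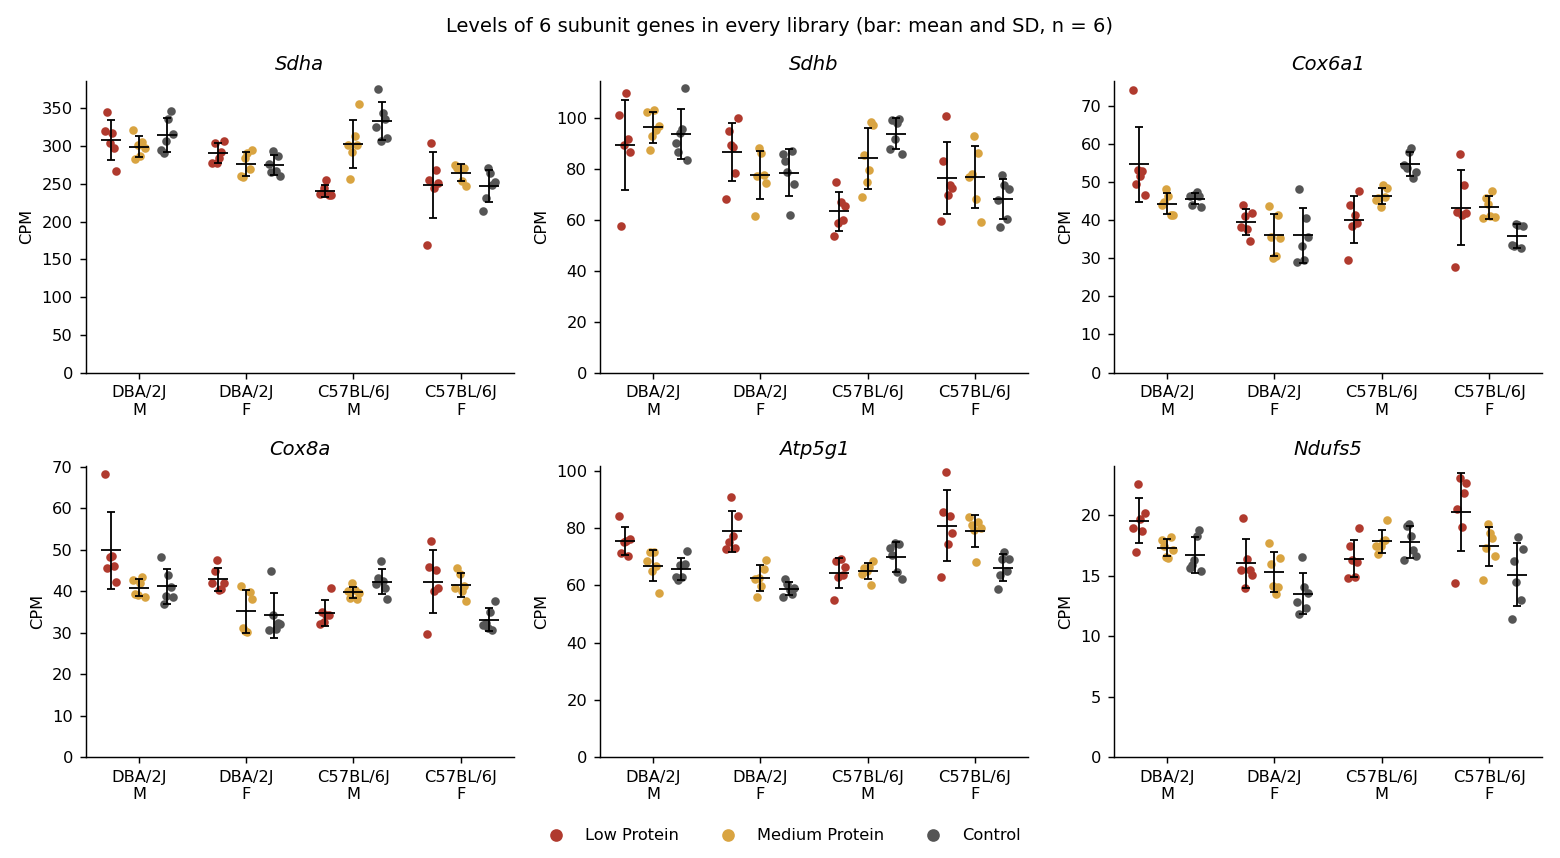
Points are CPM of 6 genes in each library, grouped by strain and sex with Low Protein left of Medium Protein and Control; bars are the mean ± SD (n = 6). Among C57BL/6J males the Low Protein points of Sdha, Sdhb and Cox6a1 lie below all Control points, and in DBA/2J females the Low Protein points of Atp5g1 lie above all Control points.

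In C57BL/6J females the same diet went with higher levels. By the same rule 7 of 81 genes rose and 0 fell (36 at an unadjusted p below 0.05), against 3.25% of all genes called and 1.47% called higher, and 79 fold changes were above 0 with a median log2 fold change of 0.17. They were Ndufs5, Ndufv3 and Ndufa3 of complex I, Cox5b and Cox8a of complex IV, and Atp5g1 and Atp5k of ATP synthase.

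Ndufs5, an accessory subunit of complex I, had 14.4, 21.2 and 23.1 CPM on Low Protein, against 11.4, 15.3 and 18.2 CPM on Control, with a log2 fold change of 0.43 ± 0.09 (edgeR adjusted p = 0.00297). Atp5g1 had 62.9, 81.3 and 99.6 CPM on Low Protein, against 58.7, 67.1 and 71.5 CPM on Control (0.29 ± 0.07; edgeR adjusted p = 0.00874). The ranges of both genes overlapped. Cox5b, the zinc-binding subunit of complex IV, had 22.2, 38.8 and 53.7 CPM on Low Protein, against 27.3, 28.2 and 30.9 CPM on Control (0.42 ± 0.11; edgeR adjusted p = 0.0177). Ndufv3, an accessory subunit of the NADH-oxidising module, had 21.3, 29.2 and 40.9 CPM on Low Protein, against 20.2, 23.5 and 26.2 CPM on Control (0.32 ± 0.08; edgeR adjusted p = 0.0187). Cox8a had 29.6, 43.0 and 52.1 CPM on Low Protein, against 30.6, 32.0 and 37.7 CPM on Control (0.35 ± 0.09; edgeR adjusted p = 0.0192). For these 3 genes the Low Protein group held the lowest or nearly the lowest library as well as the highest. Atp5k, a small membrane subunit of ATP synthase, had 17.7, 39.3 and 49.9 CPM on Low Protein, against 21.6, 26.3 and 30.7 CPM on Control (0.45 ± 0.13; edgeR adjusted p = 0.0322).

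The wide Low Protein ranges came from a pair of libraries at opposite ends. In C57BL/6J female Low Protein replicate 1 the median deviation over the 81 genes was -0.36 on the log2 scale and in replicate 3 it was 0.39, while the other 4 lay between 0.03 and 0.17. Without replicate 1, 29 genes were called. Without replicate 3, only Ndufs5 was (log2 fold change 0.39; edgeR adjusted p = 0.0146), and without replicate 2 the count was 4. It was 4 with no filter on low counts, and 0 when the fit held only the Low Protein and Control groups of C57BL/6J females. Macrophage markers, of which 0 of 12 were called by edgeR, had summed levels of 271, 311 and 1260 CPM on Low Protein, against 233, 318 and 680 CPM on Control. Hepatocyte markers had 38100, 73900 and 86300 CPM on Low Protein, against 65500, 73200 and 77600 CPM on Control. The highest sums of T, NK and B cell markers and of cholangiocyte markers were 42.1 and 70.4 CPM on Low Protein, against 17 and 56 CPM on Control. Those of stellate cell and endothelial markers were 548 and 429 CPM on Low Protein, against 588 and 438 CPM on Control. Their part in the result was not tested.

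In DBA/2J females 13 of 81 genes rose on Low Protein and 0 fell (47 at an unadjusted p below 0.05), against 0.816% of all genes called and 0.609% called higher. Fold changes were above 0 for 70 of the 81, and the median log2 fold change was 0.18. The 13 were Atp5g1, Atp5g3, Atp5l and Atp5mpl of ATP synthase, Cox7b, Ndufa4, Cox5a and Cox7a2l of complex IV, Sdhc and Sdhd of complex II, Cyc1 of complex III, and Ndufa3 and Ndufa9 of complex I.

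Subunit c genes led. Atp5g1 had 72.8, 76.2 and 90.9 CPM on Low Protein, against 56.0, 58.8 and 62.2 CPM on Control (log2 fold change 0.42 ± 0.07; edgeR adjusted p = 0.000257). Atp5g3 had 89.8, 101 and 112 CPM on Low Protein, against 65.3, 72.7 and 78.9 CPM on Control (0.49 ± 0.09; edgeR adjusted p = 0.00074). Every Low Protein liver was above every Control liver for both, whereas Atp5g2, the remaining subunit c gene, was not called. Atp5l, subunit g of the membrane part, had 39.5, 44.9 and 50.4 CPM on Low Protein, against 30.4, 33.4 and 36.7 CPM on Control (0.41 ± 0.07; edgeR adjusted p = 0.000913). Atp5mpl, a small proteolipid of the same part, had 23.3, 24.3 and 24.9 CPM on Low Protein, against 14.7, 17.6 and 22.6 CPM on Control (0.44 ± 0.09; edgeR adjusted p = 0.00578). Neither of these overlapped.

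Cyc1 had 49.7, 56.5 and 75.2 CPM on Low Protein, against 38.6, 45.0 and 46.2 CPM on Control (0.41 ± 0.09; edgeR adjusted p = 0.00569). Sdhd had 154, 167 and 176 CPM on Low Protein, against 120, 135 and 144 CPM on Control (0.32 ± 0.07; edgeR adjusted p = 0.00812). The ranges did not overlap for either gene. Sdhc had 60.8, 67.4 and 74.5 CPM on Low Protein, against 46.7, 54.0 and 61.5 CPM on Control, so the 2 genes called in complex II were the membrane anchors. The catalytic pair had 278, 288 and 307 CPM for Sdha and 68.4, 89.2 and 100 CPM for Sdhb on Low Protein, against 260, 272 and 294 CPM and 62.2, 81.1 and 87.2 CPM on Control, and both overlapped. The count of 13 was 8 without DBA/2J female Control replicate 5 and at most 19 when a library was left out, without Control replicate 3. It was 6 with scaling to library totals, 5 when only the Low Protein and Control groups of DBA/2J females were fitted and 20 by DESeq2. Atp5g1 and Ndufa3 rose in females of both strains, 2 of the 13 called in DBA/2J and 2 of the 7 called in C57BL/6J. Neither was called in C57BL/6J females without Low Protein replicate 3.

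In DBA/2J males 0 of 81 genes were called by edgeR, DESeq2 or limma-voom, where 0.093% of all genes were called by edgeR. At an unadjusted p below 0.05 there were 11, and 66 fold changes were above 0 with a median log2 fold change of 0.06. Sdha had 267, 310 and 345 CPM on Low Protein, against 290, 311 and 347 CPM on Control, and Sdhb had 57.6, 90.7 and 110 CPM on Low Protein, against 83.5, 92.3 and 112 CPM on Control. The medians of these 2 genes were close and the ranges overlapped. Cox6a1 had 46.6, 52.2 and 74.1 CPM on Low Protein, against 43.5, 46.3 and 47.3 CPM on Control, where only the lowest Low Protein liver reached into the Control range. The mean over the 4 strain and sex combinations, which averages opposite directions, called 13 higher and 0 lower, against 8.01% of all genes called and 3.84% called higher, and was led by Atp5g1 (0.20 ± 0.03; edgeR adjusted p = 7.78e-05), Ndufs5 and Ndufa8. With scaling to library totals that mean called 43 higher and 0 lower, and with 1 animal per title number it called 7.

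**Figure D3:**
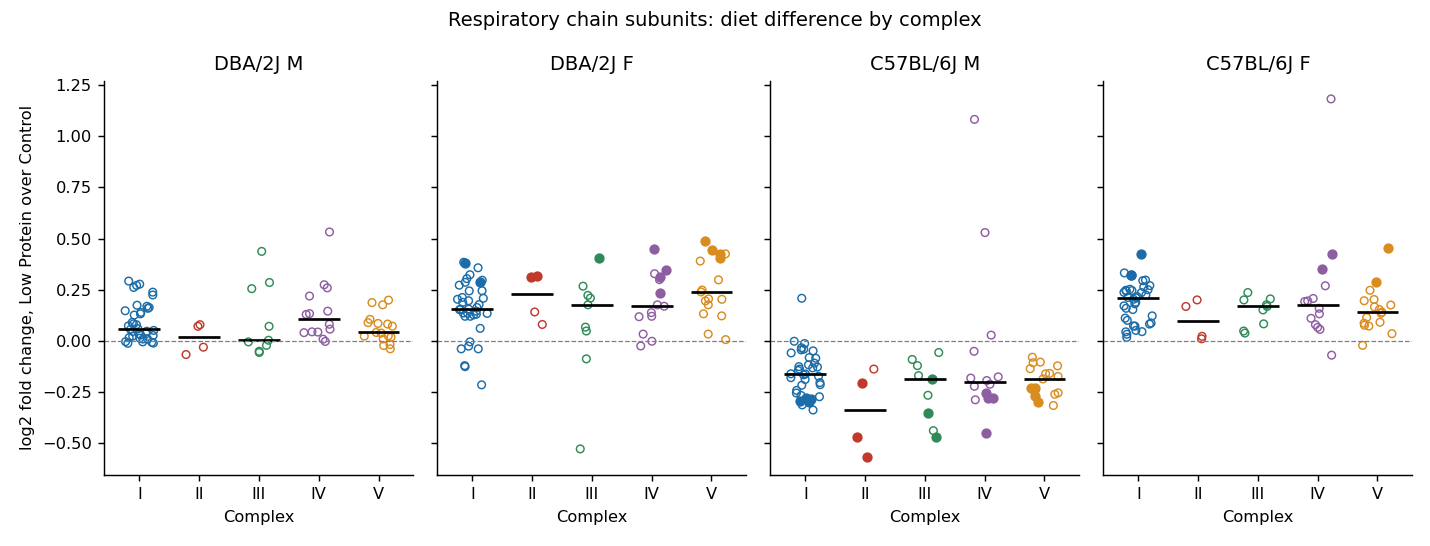
Each point is the fitted log2 fold change of Low Protein over Control of a gene, in 4 panels for the strain and sex combinations and by complex; filled points are called and lines are the medians of a complex. In C57BL/6J males the medians run from -0.34 in complex II to -0.16 in complex I, and in the other panels all medians are above 0; with scaling to library totals the median over all 81 genes in C57BL/6J males is 0.06.

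Medium Protein gave smaller differences. Against Control, edgeR called 0 of 81 genes in each of the 4 combinations and in their mean, against 0.00516% of all genes in DBA/2J males and in DBA/2J females, 0.418% in C57BL/6J males, 0% in C57BL/6J females and 0% in the mean. At an unadjusted p below 0.05 there were 0, 6, 2 and 32 genes in the 4 combinations in that order. In C57BL/6J females the median log2 fold change was 0.15, close to that on Low Protein, and Atp5g1 had 68.0, 80.6 and 83.8 CPM on Medium Protein, against 58.7, 67.1 and 71.5 CPM on Control (0.26 ± 0.07; edgeR adjusted p = 0.206). The median was -0.05 in C57BL/6J males.

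Low Protein was also set against Medium Protein. Among C57BL/6J males 9 genes fell and 0 rose, against 6.53% of all genes called, and the count was 0 with scaling to library totals and 2 with the compared groups only. Sdha averaged 241 CPM on Low Protein and 303 CPM on Medium Protein, without overlap (-0.33 ± 0.07; edgeR adjusted p = 0.00128). Ndufa1 averaged 14.5 CPM on Low Protein and 17.7 CPM on Medium Protein, also without overlap (-0.29 ± 0.08; edgeR adjusted p = 0.0134), and Sdhb averaged 63.4 CPM on Low Protein and 84.3 CPM on Medium Protein, with overlap (-0.41 ± 0.11; edgeR adjusted p = 0.0136). In DBA/2J females 1 gene rose, against 0.0413% of all genes called: Atp5g1 had 72.8, 76.2 and 90.9 CPM on Low Protein, against 56.0, 62.4 and 68.8 CPM on Medium Protein (0.34 ± 0.07; edgeR adjusted p = 0.027), and with scaling to library totals 0 were called. In DBA/2J males and C57BL/6J females edgeR called 0 genes, against 0% and 1.94% of all genes, and 7 and 4 had an unadjusted p below 0.05.

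The difference between the sexes in the diet effect was itself tested. In C57BL/6J the Low Protein effect in males minus that in females was below 0 for 32 called genes and above 0 for 0, against 4.56% of all genes called and 2.71% called lower, and the median over the 81 genes was -0.36 on the log2 scale. The 32 were 13 genes of complex I, 3 of complex II, 2 of complex III, 7 of complex IV and 7 of complex V. Cox8a had 32.0, 34.2 and 40.8 CPM in Low Protein males, against 38.2, 42.0 and 47.4 CPM in Control males, the opposite direction to the females given above. Its difference between the effects was -0.63 ± 0.13 (edgeR adjusted p = 0.00258). The next by p were Cox6a1 at -0.72 ± 0.15 (edgeR adjusted p = 0.00279), Sdha at -0.48 ± 0.10 (edgeR adjusted p = 0.00307), Sdhb at -0.73 ± 0.16 (edgeR adjusted p = 0.00329) and Ndufv3 at -0.54 ± 0.12 (edgeR adjusted p = 0.00432).

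For Sdha the females had 169, 252 and 304 CPM on Low Protein, against 213, 250 and 271 CPM on Control, so the medians of the female groups lay close together while the male groups separated. Cox6a1 in females had 27.7, 42.0 and 57.3 CPM on Low Protein, against 32.6, 35.9 and 39.0 CPM on Control. The count of 32 was 54 without C57BL/6J female Low Protein replicate 1 and 9 without replicate 3 of that group. It was 18 without replicate 2 of that group, 18 without each of C57BL/6J female Control replicates 1, 2 and 5, 18 and 21 without C57BL/6J male Low Protein replicates 1 and 3, and 19 and 21 without C57BL/6J male Control replicates 3 and 5. The 5 genes named here remained called in these fits, and Sdha was at -0.41 (edgeR adjusted p = 0.0138) without female replicate 3. With scaling to library totals 3 genes were called, 1 higher and 2 lower, a model of the 4 C57BL/6J groups alone called 6, and 1 animal per title number gave 17. In DBA/2J edgeR, DESeq2 and limma-voom called 0 genes for the difference between males and females, against 0% of all genes by edgeR, with 21 at an unadjusted p below 0.05 and a median of -0.12.

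Between strains, the Low Protein effect in DBA/2J males minus that in C57BL/6J males was above 0 for 11 called genes and below 0 for 0, against 2.88% of all genes called and 1.97% called higher, with a median of 0.26. The first 5 by p were Cox6a1 at 0.71 ± 0.15 (edgeR adjusted p = 0.00315), Sdha at 0.44 ± 0.10 (edgeR adjusted p = 0.00815), Cox8a at 0.56 ± 0.13 (edgeR adjusted p = 0.00923), Ndufa6, an accessory complex I subunit, at 0.45 (edgeR adjusted p = 0.0225), and Atp5g3 at 0.46 (edgeR adjusted p = 0.0266). Ndufa6 had 30.9, 40.5 and 51.3 CPM in DBA/2J Low Protein males, against 32.3, 36.1 and 40.7 CPM in DBA/2J Control males, and 28.9, 32.2 and 40.5 CPM in C57BL/6J Low Protein males, against 38.8, 40.8 and 44.1 CPM in C57BL/6J Control males. The DBA/2J groups overlapped widely and the C57BL/6J groups barely.

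DBA/2J male Low Protein replicate 1 was the highest of its group for Cox6a1, Cox8a and Uqcrc1, and its median deviation over the 81 genes was 0.24. Without it the count of 11 was 3, Cox6a1 at 0.60 (edgeR adjusted p = 0.0143), Sdha at 0.43 (edgeR adjusted p = 0.0172) and Cox8a at 0.44 (edgeR adjusted p = 0.0409). The count was also 3 without C57BL/6J male Low Protein replicate 1, 16 without DBA/2J male Low Protein replicate 2, 1 with scaling to library totals, and 4 with 1 animal per title number. It was 7 and 5 without DBA/2J male Low Protein replicates 3 and 4, 7, 6 and 5 without DBA/2J male Control replicates 1, 2 and 6, 6 without C57BL/6J male Low Protein replicate 5, and 7, 6 and 5 without C57BL/6J male Control replicates 2, 3 and 5. In females edgeR, DESeq2 and limma-voom called 0 genes for the strain difference, against 0.093% of all genes by edgeR, with 9 at an unadjusted p below 0.05 and a median of 0.05.

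On the Control diet and relative to other genes, males had more respiratory chain mRNA than females in both strains, a direction that turned with scaling to library totals. In DBA/2J 39 of 81 genes were higher in males and 0 lower, against 18.3% of all genes called and 10.4% called higher. In C57BL/6J 28 were higher and 2, Cox6b2 and Ndufab1, lower, against 20.8% of all genes called and 11.6% called higher. The same 13 genes were higher in both strains, 13 of the 39 and 13 of the 28. These directions are relative to other genes: with libraries scaled to their totals the median of all genes was -0.29 and that of the 81 genes -0.05 in DBA/2J, with 0 genes higher and 5 lower, and -0.35 and -0.15 in C57BL/6J, with 1 higher and 26 lower, so that the 81 genes stood 0.24 and 0.20 above all genes.

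In DBA/2J Ndufa1 had 17.7, 18.6 and 19.4 CPM in Control males, against 11.2, 13.0 and 16.1 CPM in Control females, with no overlap (0.47 ± 0.08; edgeR adjusted p = 6.66e-06). Ndufa4, a complex IV subunit first assigned to complex I, had 86.4, 94.6 and 109 CPM in males, against 58.5, 70.0 and 78.5 CPM in females, also with no overlap (0.46 ± 0.08; edgeR adjusted p = 2e-05). The other genes with the largest fold changes were Ndufb3 at 0.52, Uqcr10 at 0.48, Cox7b at 0.46 and Atp5k at 0.46. In C57BL/6J Cox6a1 had 50.9, 54.0 and 58.9 CPM in Control males, against 32.6, 35.9 and 39.0 CPM in Control females, without overlap (0.61 ± 0.11; edgeR adjusted p = 1.55e-05). Uqcrq, a small complex III subunit, had 24.1, 30.9 and 42.8 CPM in males, against 11.2, 20.5 and 25.5 CPM in females, and only the edges of the groups met (0.69 ± 0.23; edgeR adjusted p = 0.0227). Sdha had 306, 331 and 376 CPM in males, against 213, 250 and 271 CPM in females, which did not overlap (0.43 ± 0.07; edgeR adjusted p = 6.2e-06). Ndufa2, Uqcr11 and Ndufs8 were next at 0.53, 0.48 and 0.46, and the scarce Cox6b2 averaged 0.139 CPM in males and 0.694 CPM in females.

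The sexes were also compared on Low Protein, under the same TMM scaling, and whether their difference itself differed between strains was not tested. In DBA/2J 25 genes were higher in males and 1, Ndufab1, lower, against 18.8% of all genes called and 10.7% called higher. Uqcrq had 21.3, 26.98 and 59.3 CPM in DBA/2J Low Protein males, against 12.1, 15.8 and 19.8 CPM in DBA/2J Low Protein females, with no overlap (0.98 ± 0.23; edgeR adjusted p = 0.00102). Uqcr11 at 0.74, Ndufb4c and Ndufa13 at 0.51, Uqcr10 at 0.50 and Cox6a1 at 0.47 followed. The count of 26 was 15 without DBA/2J male Low Protein replicate 1 and 16 without DBA/2J female Low Protein replicate 5, and with scaling to library totals 6 genes were higher and 10 lower.

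In C57BL/6J on Low Protein 0 genes were higher in males and 25 lower, against 28.2% of all genes called and 13.8% called lower. Cox7b, a small complex IV subunit, had 41.7, 47.2 and 55.9 CPM in C57BL/6J Low Protein males, against 46.1, 73.5 and 88.7 CPM in C57BL/6J Low Protein females, and only the lowest female lay within the male range (-0.59 ± 0.10; edgeR adjusted p = 4.75e-06). Atp5k at -0.53, Ndufa5 at -0.45, Cox5b at -0.43 and Sdhd at -0.37 followed, beside the scarce Cox6b2. Of the 28 genes higher in C57BL/6J males on Control, 0 were higher, 2 were lower and 26 were not called on Low Protein. The count of 25 was 13 without C57BL/6J female Low Protein replicate 3, 53 without replicate 1, 49, all lower, with scaling to library totals and 10 when only these libraries were fitted. Over both strains and all 3 diets, 41 genes were higher and 4 lower in males, 55.6% of the 81 against 50.4% of all genes, a share near the background, and with scaling to library totals 1 was higher and 55 lower.

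**Figure D4:**
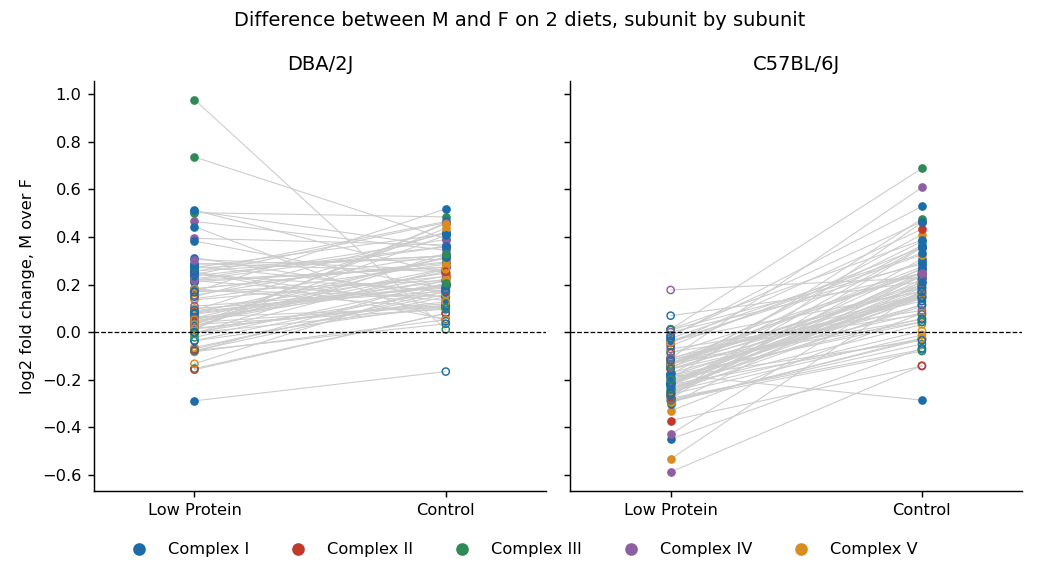
Each line joins the fitted log2 fold change of males over females of a gene on Low Protein to that on Control, in each strain; filled points are called, and the scarce Cox7a1 and Cox6b2 are left out. In C57BL/6J the points lie mostly below 0 on Low Protein and mostly above 0 on Control, and in DBA/2J they lie mostly above 0 on both diets, under TMM scaling; with scaling to library totals the Control medians are -0.05 in DBA/2J and -0.15 in C57BL/6J.

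The strains were compared over all sexes and diets. The aligner and genome build behind the counts are not given. For the strain comparisons here, it was not tested whether reads of both strains mapped equally well. On average 12 of the 81 genes were higher and 32 lower in DBA/2J than in C57BL/6J, 54.3% against 59.2% of all genes called, a share near the background, and with scaling to library totals 20 were higher and 23 lower. Atp5h, subunit d of the peripheral stalk of ATP synthase, had 61.3, 67.2 and 75.6 CPM in DBA/2J Control males, against 87.1, 93.5 and 96.3 CPM in C57BL/6J Control males, without overlap, and 56.0, 64.2 and 77.5 CPM in DBA/2J Control females, against 79.0, 92.8 and 109 CPM in C57BL/6J Control females, again without overlap. Its mean log2 fold change was -0.46 ± 0.03 (edgeR adjusted p = 7.11e-22).

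Cox7a2l, which joins complexes III and IV into supercomplexes, had 50.4, 51.9 and 59.9 CPM in DBA/2J Control males, against 60.1, 64.8 and 71.4 CPM in C57BL/6J Control males, and 43.2, 44.9 and 47.3 CPM in DBA/2J Control females, against 53.3, 62.4 and 66.9 CPM in C57BL/6J Control females. Neither sex overlapped, and the mean log2 fold change was -0.35 ± 0.02 (edgeR adjusted p = 1.24e-20). The C57BL/6J strain is known to carry a short, inactive form of this protein, which the gene-level counts do not separate. Ndufa12, an accessory subunit of complex I, went the other way, with 20.2, 21.8 and 23.2 CPM in DBA/2J Control males, against 13.8, 16.3 and 17.6 CPM in C57BL/6J Control males, and 18.2, 20.4 and 23.0 CPM in DBA/2J Control females, against 12.6, 17.0 and 18.5 CPM in C57BL/6J Control females. The male groups did not overlap and the female groups met at the edge, and the mean log2 fold change was 0.35 ± 0.03 (edgeR adjusted p = 2.99e-15). Uqcrb, the ubiquinone-binding accessory protein of complex III, was at -0.37 ± 0.05, and Ndufs7, a core subunit of complex I, at -0.32 ± 0.06.

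**Figure D5:**
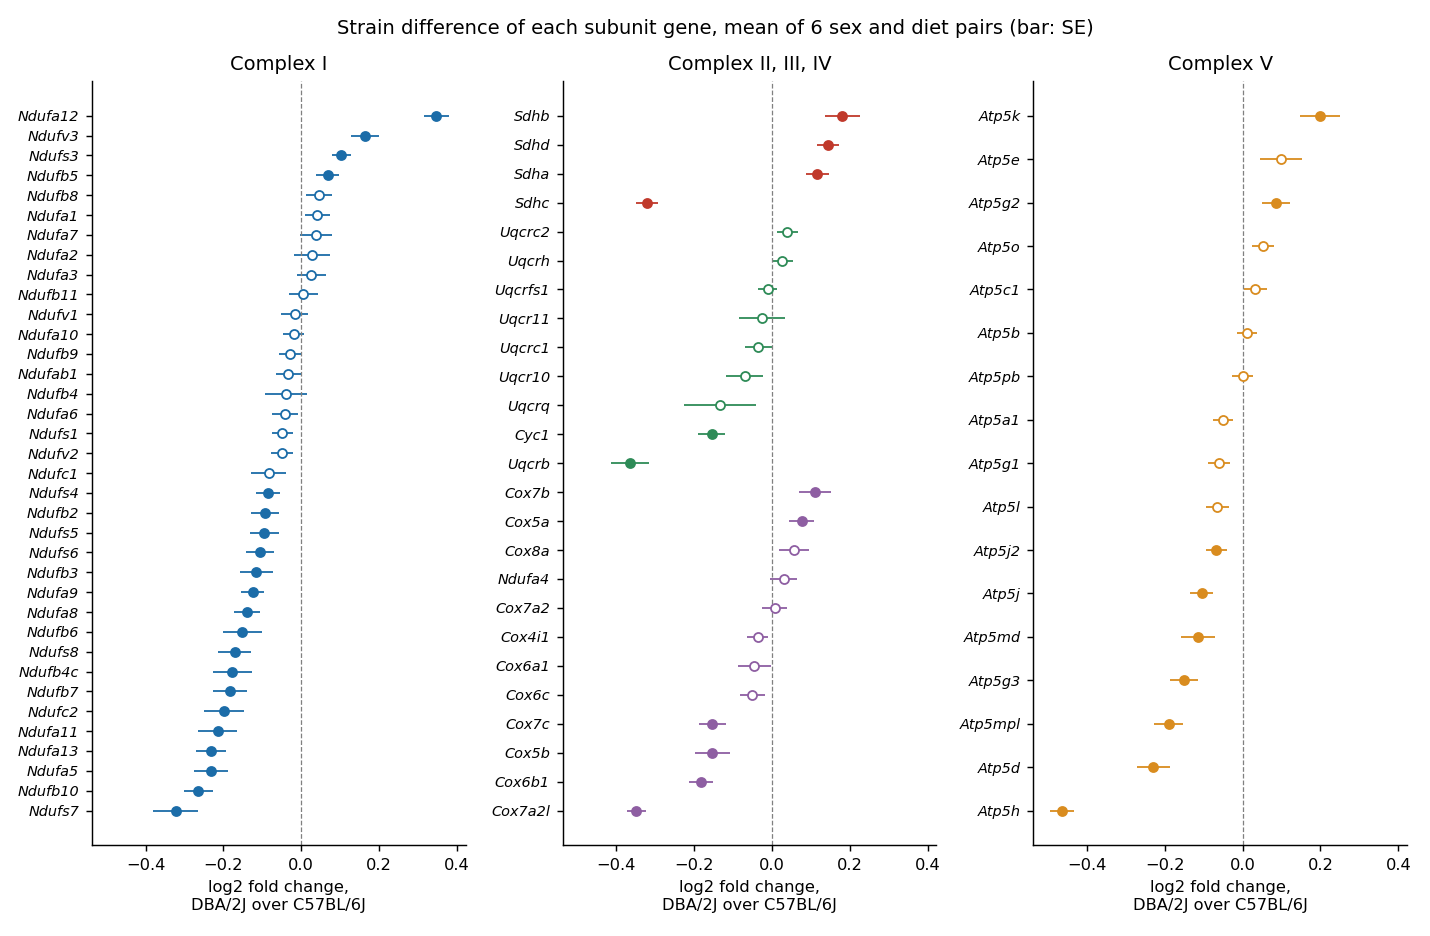
Points are the log2 fold change of DBA/2J over C57BL/6J averaged over sexes and diets, with its SE, for the subunit genes ordered by value within each complex, without the scarce Cox7a1 and Cox6b2 and 1 gene not reported here; filled points are called. Atp5h at -0.46 is at the low end and Ndufa12 at 0.35 at the high end.

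By complex, all 4 genes of complex II differed between strains, with Sdhb at 0.18, Sdhd at 0.15 and Sdha at 0.12 higher in DBA/2J and Sdhc at -0.32 lower. Complex III differed least by count: Uqcrb and Cyc1, at -0.37 and -0.16, were called lower and the other 7 were not called. Within sexes and diets, DBA/2J males on Low Protein had 39 genes higher and 3 lower than C57BL/6J males on Low Protein, against 35.2% of all genes called and 17.9% called higher. With scaling to library totals 22 were higher and 4 lower. The largest were Uqcr11 at 0.61, Cox7b at 0.60, Ndufa12 at 0.59, Atp5k at 0.58, Cox8a at 0.52 and Uqcr10 at 0.52. Uqcr11 had 40.0, 51.5 and 76.7 CPM in these DBA/2J males, against 21.8, 36.1 and 39.4 CPM in the C57BL/6J males, and the groups did not overlap. On Control, DBA/2J males had 3 genes higher and 9 lower than C57BL/6J males, against 30.5% of all genes called, and with scaling to library totals the direction turned, with 5 higher and 4 lower. DBA/2J females on Low Protein had 3 genes higher and 20 lower than C57BL/6J females, against 33.1% of all genes called, and on Control 2 higher and 24 lower, against 27.8%. The last count was 16 without C57BL/6J female Control replicate 6, 16 without DBA/2J female Control replicate 5 and 17 without C57BL/6J female Control replicate 4, 14 with 1 animal per title number, and 16, as 3 higher and 13 lower, with scaling to library totals.

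Other genes of the pathway were examined by list on Low Protein against Control. Of the 13 mitochondrially encoded mRNAs, which code for the remaining subunits, 10 were lower and 0 higher in C57BL/6J males, against 5.7% of all genes called lower, with a median log2 fold change of -0.61. Their summed level was 14300, 15300 and 24100 CPM on Low Protein, against 21200, 22800 and 25600 CPM on Control, and the highest Low Protein liver lay within the Control range. mt-Cytb, the cytochrome b of complex III, was at -0.66 ± 0.11 (edgeR adjusted p = 1.7e-05), mt-Nd4 at -0.61 and mt-Nd2 at -0.69, the last a pair of core subunits of complex I. In C57BL/6J females 0 were higher and 1, mt-Cytb, lower, against 3.25% of all genes called. In DBA/2J females 1, mt-Atp6, was higher and 0 lower, against 0.816%, and in DBA/2J males edgeR called 0, against 0.093%. Averaged over sexes and diets, 12 of the 13 were lower in DBA/2J than in C57BL/6J and 0 higher, against 59.2% of all genes called in either direction, with a median log2 fold change of -0.86.

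Of 45 assembly factors tested, 1 was higher and 5 were lower in C57BL/6J males, among them Surf1 of complex IV at -0.29, Ndufaf1 of complex I at -0.35 and Uqcc3 of complex III at -0.39, where 9.78% of all genes were called. In C57BL/6J females 1 was higher, in DBA/2J females 2 were higher and in DBA/2J males edgeR called 0. Of all genes, 3.25%, 0.816% and 0.093% were called in these groups. Of 22 carriers and ubiquinone synthesis genes, 1 was higher and 3 were lower in C57BL/6J males: Coq8a, a kinase-like protein needed for ubiquinone synthesis, at -0.89 ± 0.17 (edgeR adjusted p = 0.0002), the outer membrane channel Vdac1 at -0.27 and the ADP/ATP carrier Slc25a5 at -0.25. In DBA/2J females 2 of the 22 were higher and 0 lower, against 0.816% of all genes called: Slc25a5 at 0.37 ± 0.06 (edgeR adjusted p = 0.000351) and the phosphate carrier Slc25a3 at 0.32.

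Of 15 citric acid cycle genes, 0 were higher and 2 lower in C57BL/6J males, 2 higher and 0 lower in C57BL/6J females, and 4 higher and 0 lower in DBA/2J females, where 9.78%, 3.25% and 0.816% of all genes were called. Pcx, pyruvate carboxylase, was at -0.31 in C57BL/6J males and 0.38 in C57BL/6J females, and fumarase Fh1 was at 0.62 in DBA/2J females. Of 14 regulators of mitochondrial biogenesis, the called genes were Yy1 at -0.31 and Polg, the mitochondrial DNA polymerase, at -0.26. Both were lower in C57BL/6J females, where 3.25% of all genes were called. Ppargc1a, the coactivator of this programme, had log2 fold changes of -0.20 in C57BL/6J males, 0.37 in C57BL/6J females, 0.39 in DBA/2J females and 0.05 in DBA/2J males and was not called. Of 78 mitochondrial ribosomal proteins, 1 was lower in C57BL/6J males and 1 higher in C57BL/6J females, where 9.78% and 3.25% of all genes were called.

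Length gave a description of whether short transcripts moved apart from long ones. The median log2 fold change on Low Protein in C57BL/6J males was -0.19 for the 40 genes under 1000 bases and -0.18 for the longer ones, against -0.03 and 0.00 for other short and long genes. In C57BL/6J females it was 0.20 and 0.13, against 0.10 and 0.01, in DBA/2J females 0.23 and 0.16, against 0.03 and -0.01, and in DBA/2J males 0.10 and 0.03, against 0.04 and 0.01. For males over females, under TMM scaling, short genes of the chain and other short genes both had medians above 0 on Control, 0.27 and 0.12 in DBA/2J and 0.20 and 0.09 in C57BL/6J, and in DBA/2J on Low Protein, 0.20 and 0.09. Cytosolic ribosomal protein genes, which are also short, had medians of 0.15 in C57BL/6J males, 0.08 in C57BL/6J females and 0.13 in DBA/2J females. Their direction was opposite to that of the respiratory chain genes in C57BL/6J males.

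In the authors' deposited table, 0 of the 81 genes were higher and 22 lower on Low Protein in C57BL/6J males, 5 were higher and 0 lower in C57BL/6J females, 17 higher and 0 lower in DBA/2J females, and 0 were called in DBA/2J males. Over all 17575 genes that table called 1924, 732, 188 and 24 in the same order, and the genes of the 81 called in both analyses were 19, 5, 13 and 0.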

How the data were processed

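Gene-level estimated counts of 72 libraries were made by the authors with RSEM from lanes merged per library, per the submitters' processing notes, which also name edgeR, limma and R 3.4.3; which aligner, genome build and annotation were used is not given in the sources used here. Beside it, the authors' deposited comparison table gives log2 fold changes, p-values and a per-gene F score for 17575 genes. The table was used to choose the genes and for its diet fold changes and p-values; the score was not used. Of the count values, 11.6% were not whole and were rounded. Of 51912 genes, 51633 matched a symbol by Ensembl ID and 279 did not. The series title speaks of a further strain, not analysed here.

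Counts were fitted with edgeR 4.0.16 (R 4.3.3; filterByExpr, TMM scaling, quasi-likelihood F test, two-sided) in 1 model of 12 group means with 60 residual degrees of freedom. In each of 28 comparisons p was adjusted by Benjamini-Hochberg across 19362 genes, and a gene was called below 0.05. A p-value sets a difference between group means against the spread between these libraries. Library totals were 26.9 to 38.4 M and the common biological coefficient of variation was 0.207. In simulated data for Low Protein against Control in C57BL/6J males, on 18473 genes, 39% of genes changed 1.5-fold and 98% of genes changed 2-fold were called. These shares go with that common spread and do not give the shares for genes that varied less, such as Atp5a1.

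Named genes were, in each Low Protein against Control comparison, up to 6 called genes with the smallest p in each direction, up to 5 in each difference between effects, up to 6 with the largest fold change for sex and strain, up to 3 in other diet comparisons and from other lists, and a set of catalytic subunits and isoforms throughout, of which 1 is not reported here. The members and lists were chosen with earlier results of these data known. Exon lengths were taken from GENCODE M21 by Ensembl ID. Alternatives were DESeq2 1.42.0, limma-voom (limma 3.58.1), RLE factors, library totals, scaling without the 10 most abundant genes, no filter on low counts, the compared groups alone, 1 animal per title number, the row letter of a code in the labels, and each library left out in turn.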

Additional observations from a re-analysis of the deposited data

Results flagged for a closer look

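The genes with library values set beside their group were tested for a library apart by Dixon's ratio at its 95% critical value in each group of 6, over 180 groups; chance alone picks out about 1 in 20 groups, and 10 values were picked out here. DBA/2J male Low Protein replicate 1 stood above its group for Cox6a1 at 74.1 CPM (the others at 46.6 to 53.2), Cox8a at 68.2 CPM (42.2 to 48.4) and Uqcrc1 at 158 CPM (125 to 136). In C57BL/6J males on Low Protein, Cox8a was at 40.8 CPM in replicate 6 (32.0 to 35.1) and Atp5g3 at 63.6 CPM in replicate 1 (83.7 to 93.3). Atp5g1 was at 68.0 CPM in C57BL/6J female Medium Protein replicate 4 (79.1 to 83.8), and Cox7a2l at 59.9 CPM in DBA/2J male Control replicate 5 (50.4 to 53.0). In DBA/2J females, Cox8a was at 44.8 CPM in Control replicate 2 (30.5 to 34.2), Cyc1 at 38.6 CPM in Control replicate 4 (44.5 to 46.2) and Uqcrc1 at 124 CPM in Medium Protein replicate 5 (99.2 to 107).

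The Low Protein effect differed between groups by edgeR's test of the difference itself. In C57BL/6J, males minus females, 32 genes were called, with Cox8a at -0.63, Cox6a1 at -0.72, Sdha at -0.48, Sdhb at -0.73 and Ndufv3 at -0.54 on the log2 scale. In males, DBA/2J minus C57BL/6J, 11 genes were called, with Cox6a1 at 0.71, Sdha at 0.44, Cox8a at 0.56, Ndufa6 at 0.45 and Atp5g3 at 0.46.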

How the results depend on the processing

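No paired analysis was possible because the numbers in the titles pair no animals across diets. RLE factors, limma-voom, scaling without the 10 most abundant genes, and 2 alternatives added after the data were seen (without the 4 libraries over 5% ribosomal-like RNA, and scaling without ribosomal-like and mitochondrial transcripts) kept each count of called genes within 1.5 times of the reported one, except that without those 4 libraries Low Protein against Medium Protein gave 2 in C57BL/6J males, and the mean of the 4 Low Protein against Control effects gave 7. Scaling to library totals called, on Low Protein against Control, 6 genes in C57BL/6J males (4 higher, 2 lower, median 0.063), 2 in C57BL/6J females and 6 in DBA/2J females, and Sdhd (0.032), Atp5pb (0.016), Atp5a1 (0.005), Uqcrfs1 (0.052) and Atp5j2 (0.006) changed sign in C57BL/6J males. Males against females gave 5 genes in DBA/2J and 27 in C57BL/6J on Control, 16 and 49 on Low Protein, and 56 in the mean. DBA/2J against C57BL/6J gave 9 in males and 16 in females on Control, and 26 in males on Low Protein. The differences between Low Protein effects gave 3 in C57BL/6J and 1 in males. Summed levels were 5366 and 5295 CPM in DBA/2J male Medium Protein and Control, 6082, 5678 and 5468 in DBA/2J female Low Protein, Medium Protein and Control, 5126 and 5113 in C57BL/6J male Medium Protein and Control, and 6058 in C57BL/6J female Medium Protein. Library totals include ribosomal-like RNA, at 34.9% and 12.6% of counts in C57BL/6J male Control replicates 6 and 1, and its part in these results was not tested.

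With no filter on low counts the counts were 8 in C57BL/6J males and 4 in C57BL/6J females on Low Protein against Control, 12 for sex in DBA/2J on Low Protein, 16 for strain in Control females, and 11 and 3 for the differences between effects in C57BL/6J and in males. With 1 animal per title number they were 12 in C57BL/6J males, 14 for strain in Control females, and 17 and 4 for the differences. The compared groups alone gave 0 in C57BL/6J females and 5 in DBA/2J females, 10 and 16 for sex on Low Protein in C57BL/6J and DBA/2J, 22 and 14 for strain in Control males and females, and 6 and 17 for the differences. DESeq2 gave 20 in DBA/2J females, and the row letter of the label codes as a term gave 20 there and 15 and 4 for the differences. Allowing 1 mismatch, motif shares were 50% for the NRF1 core (23.7% of promoters of tested genes), 33.3% for its palindrome (11.1%), 79.2% for CCGGAAG (72.2%), 44.4% for CCGGAAGT (31.6%), 43.1% and 15.3% for the short and long YY1 motif (30.1% and 3.97%), 12.5% for TCAAGGTCA (5.65%) and 100% for CCAAT (99.1%). The cause of these changes was not tested.

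Leaving out each Low Protein or Control library in turn, over 48 fits, gave 10 to 22 genes in C57BL/6J males, 1 to 29 in C57BL/6J females, 0 in DBA/2J males and 8 to 19 in DBA/2J females on Low Protein against Control. The differences between effects gave 9 to 54 in C57BL/6J and 3 to 16 in males. Sex gave 33 to 44 in DBA/2J and 21 to 38 in C57BL/6J on Control, and 15 to 26 and 13 to 53 on Low Protein. Strain gave 9 to 13 in males and 16 to 26 in females on Control, and 35 to 48 and 20 to 31 on Low Protein. Of 2602 checked values of single named genes and medians under the alternatives, 6 changed sign and 612 kept their direction without passing the threshold. A further 14 moved otherwise and 1970 were the same. With scaling to library totals, the C57BL/6J male Low Protein median, Sdhd, Atp5pb, Atp5a1, Uqcrfs1 and Atp5j2 made up the sign changes. The medians of males over females on Control, which also turned with that scaling, are not among them. In data simulated with the common spread for every gene, 1.5-fold changes were often missed. Those shares do not carry over to genes that varied less. A gene not called here is not thereby shown to be unchanged.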

Other observations

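Within the Low Protein group of C57BL/6J males, replicate 1 had the lowest median deviation of the 81 nuclear genes, -0.23 on the log2 scale, and the highest share of counts in mitochondrially encoded mRNA, 2.39%, where the other 5 livers had 1.43% to 1.66% and the Control livers of that strain and sex 1.32% to 2.31%. Nuclear and mitochondrial transcripts of the chain thus stood at opposite ends in this liver. The lowest Control share, 1.32%, was in Control replicate 6, where genes that collect ribosomal RNA reads took 34.9% of counts. The other Control livers had 1.95% to 2.31%. In the comparison of groups the nuclear and the mitochondrial set were both lower on Low Protein in C57BL/6J males. The median log2 fold change of DBA/2J over C57BL/6J, averaged over sexes and diets, was -0.86 for the 13 mitochondrial mRNAs and -0.05 for the 81 nuclear genes, and the sets were not compared by a test.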
